A study of Mus musculus with 12 samples.

Results

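Semaphorins, plexins, ephrins, Eph receptors, Slits, Robos, netrins and Unc5 receptors were first known as the ligands and receptors that steer growing axons, and they also act between endothelial cells, mural cells and leukocytes. They are described here across 12 RNA sequencing libraries of mouse pancreatic islets and islet cells. Members were the protein-coding genes of 22711 gene symbols whose symbol begins with Sema3 to Sema7, Plxn, Epha, Ephb, Efna or Efnb, or is Slit1 to Slit3, Robo1 to Robo4, Unc5a to Unc5d, Ntn1 or Ntn4. There were 64 of them, namely 20 semaphorins, 9 plexins, 8 ephrins, 14 Eph receptors, 7 Slits and Robos and 6 netrins and Unc5 receptors, and no expression value was used to choose them.

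All mice were RIP-rtTA; TetO-VEGF-A, a model in which the rat insulin promoter drives the doxycycline-dependent activator rtTA in beta cells and doxycycline (Dox) then switches on a VEGF-A transgene. The 4 groups of 3 libraries were CD31+ endothelial cells sorted from islets after 1 week of Dox, CD11b+ macrophages sorted from islets after 1 week of Dox, whole islets after 1 week of Dox, and whole islets of mice without Dox, which carry the same transgenes. Sorted cells of mice without Dox were not analysed here. Ages are not stated, nor whether islets were pooled or the libraries of a group came from separate mice, so the p-values measure the spread between these samples, which may be technical.

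In these families a ligand on or from one cell binds a receptor on another. Semaphorins bind plexins, and most class 3 semaphorins do so through a neuropilin co-receptor, which VEGF-A also binds. Ephrins are themselves held in the membrane and signal in both directions when they meet Eph receptors on a neighbouring cell. Slits bind Robos, and netrins bind Unc5 receptors and Dcc. In vessels, ephrin-B2 is known as an arterial gene and EphB4 as a venous one, while plexin-D1, Robo4 and Unc5b are receptors known from endothelium.

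Values are the authors' normalized signal on a linear scale with a floor of 1, given as mean ± SD of 3 libraries where not given per library. Summed signal was 17626506 to 25218786 per library. The sources used here give no read numbers, so values carry no counting interval. The normalization for gene length is unknown too, so levels are compared within a gene and not between genes. Endothelial marker genes (8, Pecam1 of the CD31 gate among them) held 0.817 to 0.868% of the signal in endothelial cells, 0.00573 to 0.00797% in macrophages, 0.343 to 0.418% in Dox islets and 0.129 to 0.143% in No Dox islets. Macrophage markers (8, Itgam of the CD11b gate among them) held 0.000764 to 0.00257%, 1.39 to 1.45%, 0.0544 to 0.0982% and 0.0173 to 0.0364% in the same order, so both fractions carried the genes of their label. Genes of other islet cells were present in both fractions. Pericyte and smooth muscle markers held 0.069 to 0.271% in endothelial cells and 0.01665 to 0.0615% in macrophages. Markers of alpha, delta and PP cells held 0.00657 to 0.011% and 0.017 to 0.0623%, and beta cell markers 0.0022 to 0.00283% and 0.01265 to 0.0302%. Some libraries stood apart. Acinar genes held 0.486% of the signal in endothelial replicate 2 and 1.68% in macrophage replicate 2, against 0.00122% in endothelial replicate 3 and 0.0061% in macrophage replicate 3. Dox replicate 1 and No Dox replicate 2 followed GC content: over genes, their difference from the group mean ran with GC at a rank correlation of 0.59 and 0.66, and in the remaining 4 islet libraries at -0.47 to -0.35. The points of each are genes of 1 library, so these are descriptions. Vegfa had 1580, 2085 and 2417 in Dox islets, against 3268, 4514 and 4118 in No Dox islets, and the sources used here do not say how much of the transgene its gene model would count.

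The members differed widely in the group where they were highest. Of the 64 members, 58 reached a signal of 15.5, the 40th percentile of all values above 0, in at least 3 libraries. Endothelial cells had the highest mean for 25 of these 58 (43.1%, against 25.6% of 15105 genes on the same terms), and in 17 of the 25 each endothelial library lay above all 9 others. Macrophages had the highest mean for 10 members (17.2%, against 31.3% of all genes), Dox islets for 10 (17.2%, against 14.7%) and No Dox islets for 13 (22.4%, against 28.4%). The other 6, Efna3, Epha6, Epha8, Epha10, Ephb6 and Unc5d, stayed near the floor, with group means of at most 24.3.

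**Figure D1:**
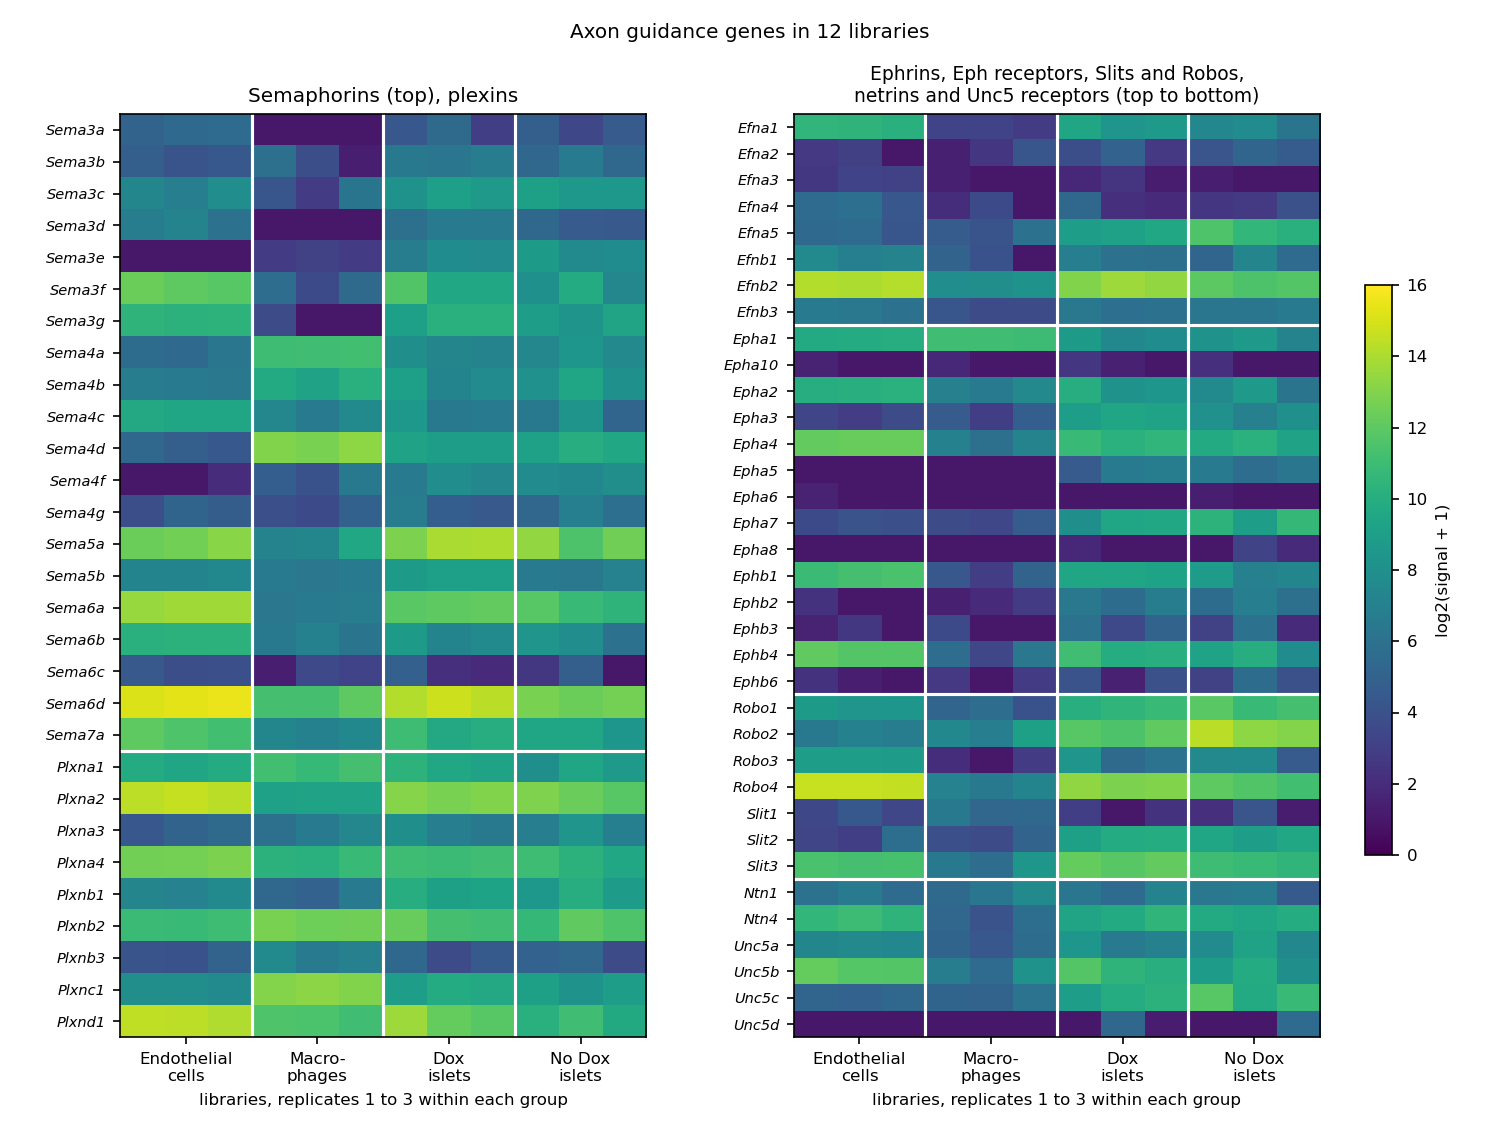
Each row is 1 of the 64 genes and each column 1 of the 12 libraries, in the order endothelial cells, macrophages, Dox islets and No Dox islets, with replicates 1 to 3 in each; colour gives log2(signal + 1). Robo4, Efnb2 and Sema6d are bright in endothelial cells, Sema4d and Plxnc1 in macrophages, and Robo2 in both sets of islets.

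Most semaphorins tested were higher in endothelial cells, and the 3 that were higher in macrophages, Sema4a, Sema4b and Sema4d, are of class 4. Class 3 semaphorins are secreted, classes 4 to 6 are membrane proteins and Sema7a is held by a lipid anchor. Between the sorted fractions, tested with limma on log2(signal + 1) with Benjamini-Hochberg adjustment over all genes, 12 of 17 semaphorins tested were higher in endothelial cells and 3 were lower. Over the families together, 42 of the 48 members tested passed an adjusted p of 0.05 (59.1% of all genes tested did), 32 of them higher in endothelial cells (31.5% of all genes) and 10 lower (27.7%). In these 42 the groups did not overlap (66.5% of all genes). Of these 32, 6 (Efna1, Efna4, Robo3, Sema3a, Sema3d and Sema3g) reached the filter on low values through endothelial cells only and had to differ. Without them 26 were higher and 10 lower among 42 tested, and 9 of 14 semaphorins were higher and 3 lower. Shares of all genes tested, here and below, include genes that reached the filter through 1 group only.

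Sema3g, a secreted ligand of the neuropilins, had 1344, 1242 and 1305 in endothelial libraries, against 11.5, 1 and 1 in macrophage libraries. The log2 difference was 8.46 (SE 0.70). Every endothelial library thus lay far above macrophages, which were at or near the floor. Sema3g reached the filter through endothelial cells only and had to be higher there, so no p-value is given for it. Dox islets held 939 ± 357 and No Dox islets 478 ± 167. With so low a macrophage value the size depends on the added 1: with a pseudocount of 16 the log2 difference was 6.04 for Sema3g, below 6.89 for Sema6a and 6.50 for Sema3f. The gene is ENSMUSG00000021904 on chromosome 14 from 32031046 to 32043536 of mm9. Sema3f, another secreted neuropilin ligand, averaged 4398 ± 861 in endothelial cells and 35.7 ± 21.6 in macrophages (log2 difference 7.15, SE 0.53, adjusted p = 8.90e-06). Sema6a, a membrane ligand of plexin-A2 and plexin-A4, averaged 12941 ± 934 and 93.7 ± 12.2 (log2 difference 7.10, SE 0.14, adjusted p = 2.90e-08).

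Other semaphorins were higher in endothelial cells too. Sema6d, a membrane ligand of plexin-A1, averaged 42069 ± 5882 in endothelial cells, against 3020.3 ± 947 in macrophages, and Sema7a averaged 3185 ± 940 against 156 ± 25.1. Sema5a, a membrane semaphorin with thrombospondin repeats, averaged 6914 ± 1894 against 359.8 ± 363, with macrophage replicate 3 at 779 and the other macrophage libraries at 139 and 162, but its highest mean was in Dox islets, at 13444 ± 5290. Sema4c averaged 718 ± 71.7 against 153 ± 54.9, Sema6b 1195 ± 55.6 against 96.0 ± 32.2, and Sema3c 166 ± 55.0 against 32.2 ± 35.5. Sema3d (104 ± 38.5) and Sema3a (40.9 ± 7.38) were at the floor in all 3 macrophage libraries, so no fold is given for them. Sema5b, at 155 ± 16 against 89.3 ± 7.41, had an adjusted p of 0.0363 by limma, which ran up to 0.113 over the alternatives and missed the threshold without any 1 endothelial library or macrophage replicate 1 or 2.

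The 3 semaphorins higher in macrophages were class 4 members, while Sema4c of the same class was endothelial. Sema4d, a ligand of plexin-B1 known from leukocytes, had 38.9, 27.7 and 20.1 in endothelial libraries, against 8078, 7137 and 10147 in macrophage libraries. The groups were far apart, and the log2 difference was -8.18 (SE 0.26, adjusted p = 1.26e-07). Whole islets lay between them, with 523 ± 64.0 in Dox and 786 ± 224 in No Dox islets. Sema4d is ENSMUSG00000021451 on chromosome 13 from 51796615 to 51889116 of mm9. Sema4a averaged 56.6 ± 17.7 in endothelial cells and 2182 ± 118 in macrophages (log2 difference -5.29, SE 0.25, adjusted p = 6.77e-07), and Sema4b 95.2 ± 11.4 and 880.1 ± 273 (-3.15, SE 0.28, adjusted p = 2.65e-05).

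Another set of semaphorins had its highest mean in whole islets. Sema3e, the ligand that binds plexin-D1 without a neuropilin, was at the floor in all 3 endothelial libraries and at 6.73 ± 1.04 in macrophages, against 178 ± 60.7 in Dox islets and 277 ± 119 in No Dox islets. Sema4f was at 1.71 ± 1.23 in endothelial cells, 42.9 ± 39.1 in macrophages, 164 ± 68.6 in Dox islets and 211 ± 32.5 in No Dox islets. Sema3c (403 ± 111 in Dox islets, 431 ± 94.7 in No Dox islets), Sema3b (92.1 ± 16.6, 60.4 ± 34.4) and Sema4g (52.4 ± 49.9, 70.6 ± 42.0) also peaked in islets. Between the fractions Sema3b (21.7 ± 5.62 in endothelial cells, 24.4 ± 29.9 in macrophages) and Sema4g (24.4 ± 10.8, 18.4 ± 10.3) did not pass. Sema6c was low throughout, with the highest mean, 16.2 ± 4.15, in endothelial cells.

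Plexins, the semaphorin receptors, were shared out between both fractions, with 4 of 9 higher in endothelial cells and 5 lower (31.5% and 27.7% of all genes tested). Plxna2 had 21936, 24531 and 21160 in endothelial libraries, against 565, 585 and 604 in macrophage libraries. Replicates of each group were close, and the log2 difference of 5.26 (SE 0.10, adjusted p = 2.36e-08) was the largest of an endothelial plexin; the gene is ENSMUSG00000026640 on chromosome 1 from 196446023 to 196643063 of mm9. Plxnd1 averaged 20613 ± 2748 in endothelial cells and 2701 ± 490 in macrophages, and Plxna4 6713 ± 575 and 1396 ± 370. Plxnb1, the receptor of Sema4d, averaged 165 ± 33.7 and 54.8 ± 32.6, but whole islets were higher, at 734 ± 248 with Dox and 614 ± 356 without.

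On the macrophage side, Plxnc1, the receptor of Sema7a, had 241, 238 and 196 in endothelial libraries, against 8241, 9519 and 7857 in macrophage libraries. No other library exceeded 938, and the log2 difference was -5.24 (SE 0.14, adjusted p = 5.65e-08). Plxnc1 is ENSMUSG00000074785 on chromosome 10 from 94253617 to 94407212 of mm9. Plxnb3 averaged 21.8 ± 9.59 in endothelial cells and 138 ± 49.2 in macrophages (log2 difference -2.63, SE 0.44, adjusted p = 0.00118), and Plxnb2 1951 ± 122 and 6262 ± 729 (-1.68, SE 0.11, adjusted p = 5.08e-06). Plxna3 averaged 32.4 ± 12.9 and 108 ± 54.7 (-1.66, SE 0.51, adjusted p = 0.0222) and was highest in No Dox islets, at 186 ± 120. Its adjusted p reached up to 0.0856 over the alternatives and missed the threshold without endothelial replicate 1 or 2 or macrophage replicate 2. Plxna1, the receptor of Sema6d, averaged 839 ± 121 and 2156 ± 448, and in its gene model 10.7% of exon bases overlap Gm16896 on the opposite strand, and whether counting used strand is not stated.

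The neuropilins, of the list of other guidance receptors and ligands, went with the endothelial set, but the list as a whole did not. Of its 17 genes tested 6 were higher in endothelial cells and 8 lower (31.5% and 27.7% of all genes tested). Nrp1 averaged 61884 ± 4275 in endothelial cells and 6962 ± 274 in macrophages (log2 difference 3.15, SE 0.09, adjusted p = 6.67e-08). Nrp2, the preferred co-receptor of Sema3f, averaged 17413 ± 777 and 3351 ± 274 (2.38, SE 0.09, adjusted p = 3.02e-07). Both are receptors of VEGF-A as well as of class 3 semaphorins.

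Of the ephrins, the ligands of Eph receptors, 5 of 6 tested were higher in endothelial cells and 0 lower by limma (0 lower also at an unadjusted p under 0.05). Efna1 and Efna4 reached the filter through endothelial cells only and had to be higher; without them 3 of 4 were higher, where 31.5% of all genes were. Efna1 had 1506, 1342 and 1164 in endothelial libraries, against 8.15, 8.25 and 6.05 in macrophage libraries. The log2 difference was 7.30 (SE 0.30), and since Efna1 had to be higher no p-value is given. Macrophages were near the floor, the log2 difference was 5.84 with a pseudocount of 16, and Dox islets held 477 ± 209.7 and No Dox islets 151 ± 72.2. Efna1 is ENSMUSG00000027954 on chromosome 3 from 89075655 to 89085064 of mm9. Efnb2 averaged 18080 ± 1089 in endothelial cells and 248 ± 31.8 in macrophages. Efnb1 averaged 154 ± 44.2 and 16.5 ± 16.3, Efnb3 81.2 ± 17.2 and 14.4 ± 3.80 (81.5 ± 9.74 in No Dox islets, its highest mean), and Efna4 40.7 ± 18.8 and 5.09 ± 5.24. In the gene model of Efna4, 10.5% of exon bases overlap a gene on the opposite strand. Efna5, at 36.5 ± 16 and 35.3 ± 25.8, differed by less than the spread between replicates and was highest in whole islets, as was Efna2 with a highest mean of 26.1 ± 9.97 in No Dox islets.

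Eph receptors were mostly higher in endothelial cells or too low in both fractions to be tested. Ephb1 had 1929, 2466 and 2759 in endothelial libraries, against 19.4, 6.52 and 33.3 in macrophage libraries. All endothelial libraries lay above all others, and the log2 difference was 7.08 (SE 0.52, adjusted p = 8.65e-06); the gene is ENSMUSG00000032537 on chromosome 9 from 101824458 to 102257023 of mm9. Ephb4, the receptor of ephrin-B2, averaged 3754 ± 605 in endothelial cells and 46.6 ± 34.8 in macrophages (log2 difference 6.72, SE 0.67, adjusted p = 5.19e-05). Epha4 averaged 4888 ± 267 and 111 ± 46.3, and Epha2, a receptor of ephrin-A1, 1077 ± 89.2 and 137 ± 44.5. Epha1 was the 1 Eph receptor of the 5 tested that was lower in endothelial cells, at 937 ± 72.4, against 2100.3 ± 114 in macrophages. In its gene model 4.89% of exon bases overlap Zyx on the opposite strand.

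The remaining Eph receptors above the filter had their highest mean in whole islets. Epha3 averaged 9.37 ± 2.85 in endothelial cells, 18.6 ± 10.3 in macrophages, 592 ± 97.0 in Dox islets and 218 ± 79.3 in No Dox islets. Epha7 averaged 13.7 ± 2.47, 15.1 ± 7.93, 552 ± 265 and 1136 ± 584 in the same order. Epha5 was at the floor in all 6 sorted libraries, against 77.8 ± 47.2 in Dox islets and 73.9 ± 21.1 in No Dox islets. Ephb2 averaged 2.03 ± 1.79 in endothelial cells, 3.47 ± 2.31 in macrophages, 78.8 ± 26.3 in Dox islets and 74.1 ± 34.7 in No Dox islets. Ephb3 was lower still, with 35.6 ± 26.5 in Dox islets and 25.2 ± 34.3 in No Dox islets.

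Among Slits and Robos, 4 of 6 members tested were higher in endothelial cells and 1 lower (31.5% and 27.7% of all genes tested). Without Robo3, which reached the filter through endothelial cells only, the counts were 3 and 1 of 5. Robo4 had 25360, 25966 and 23273 in endothelial libraries, against 135, 89.3 and 151 in macrophage libraries, a log2 difference of 7.66 (SE 0.19, adjusted p = 5.51e-08). Endothelial libraries varied little and islets lay in between; Robo4 is ENSMUSG00000032125 on chromosome 9 from 37209482 to 37221608 of mm9. Robo3 averaged 477 ± 25.6 in endothelial cells and 3.44 ± 2.53 in macrophages (log2 difference 6.93, SE 0.50). It had to be higher there, so no p-value is given for it. Slit3, a secreted Robo ligand, averaged 2604 ± 121 and 163 ± 164, and Robo1 364 ± 53.2 and 34.6 ± 18.3. Slit1 was the 1 of these genes that was lower in endothelial cells, at 13.3 ± 6.14, against 55.3 ± 27.2 in macrophages (-1.96, SE 0.50, adjusted p = 0.0106). Its call was lost without endothelial replicate 1 and in 2 of its other alternatives, with an adjusted p of at most 0.0565. Robo2 did not pass, with 108 ± 21.8 in endothelial cells and 278 ± 230 in macrophages. Slit2 was near the floor in both fractions, at 23.2 ± 26.5 and 19.4 ± 11.4, against 806 ± 224 in Dox islets and 641 ± 154 in No Dox islets.

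Among netrins and Unc5 receptors, 3 of 5 members tested were higher in endothelial cells (31.5% of all genes tested) and 0 lower (27.7%). At an unadjusted p under 0.05 by limma 0 were lower. Ntn4, a netrin of basement membranes, had 1551, 2030 and 1381 in endothelial libraries, against 38.0, 16.1 and 54.4 in macrophage libraries. The groups did not overlap, and Dox islets held 981 ± 396 and No Dox islets 841 ± 130. Unc5b averaged 3838 ± 774 in endothelial cells and 146 ± 120 in macrophages, and Unc5a 175 ± 9.63 and 34.7 ± 15.4, below the 323 ± 229 of No Dox islets. Ntn1, a ligand of Unc5b, did not pass, at 68.0 ± 24.3 and 105 ± 76.6, and neither did Unc5c, at 36.4 ± 5.24 and 44.7 ± 18.9.

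**Figure D2:**
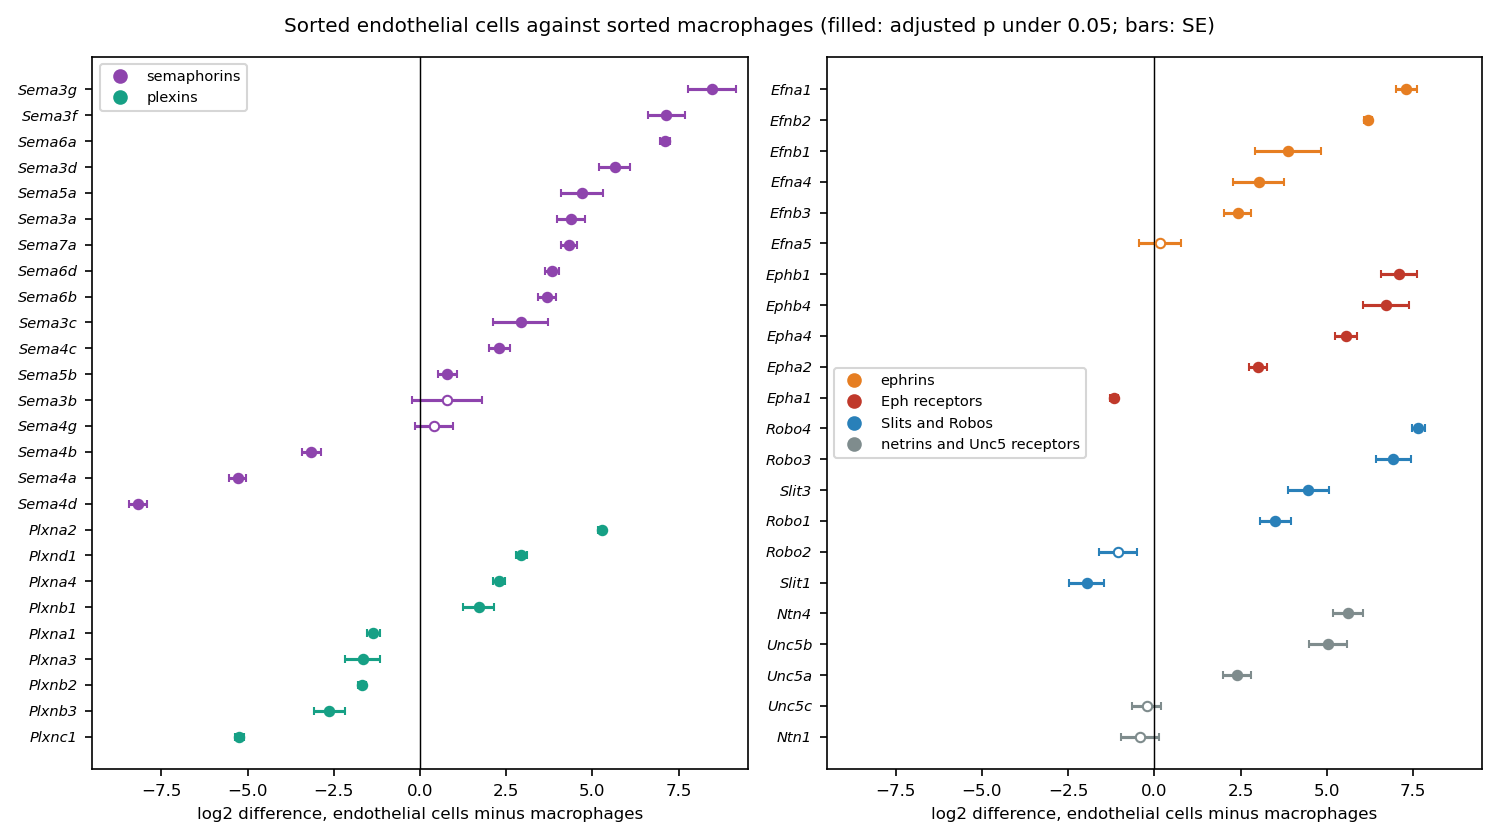
The horizontal axis gives the log2 difference, endothelial cells minus macrophages, for the 48 genes tested, with its SE as a bar; filled points passed an adjusted p of 0.05. Points run from -8.18 for Sema4d to 8.46 for Sema3g, and 32 of the filled points lie to the right of 0 and 10 to the left.

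Promoters are shown for 3 endothelial genes and 1 macrophage gene with large differences in this comparison (GRCm38.p6, 250 bases before to 50 after the start). They were ranked by difference at a pseudocount of 1 among genes with a single start in the RefSeq promoter table. Not every gene entered this ranking. Sema6a was left out, although its log2 difference (7.10) was above that of Ephb1 (7.08). The 3 endothelial genes are thus not strictly those with the largest difference. Capitals mark AGGAAG or its reverse complement CTTCCT, a form of the GGAA element bound by ETS factors, a family that includes Erg of endothelium and PU.1 of macrophages; the motif was chosen after the values were seen.
Sema3g, chr14:31217623-31217922, plus strand: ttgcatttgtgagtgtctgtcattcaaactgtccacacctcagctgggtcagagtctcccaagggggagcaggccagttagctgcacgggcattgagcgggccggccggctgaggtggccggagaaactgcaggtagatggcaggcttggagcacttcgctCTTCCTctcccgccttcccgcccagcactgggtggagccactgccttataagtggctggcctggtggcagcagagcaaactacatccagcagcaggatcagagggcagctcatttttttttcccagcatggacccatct
Robo4, chr9:37401722-37402021, plus strand: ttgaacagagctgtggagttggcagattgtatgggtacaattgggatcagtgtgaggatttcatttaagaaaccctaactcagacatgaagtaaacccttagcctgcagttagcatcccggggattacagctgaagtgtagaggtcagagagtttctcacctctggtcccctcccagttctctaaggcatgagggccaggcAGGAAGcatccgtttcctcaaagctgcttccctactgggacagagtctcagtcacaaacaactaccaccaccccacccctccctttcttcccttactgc
Ephb1, chr9:102354644-102354943, minus strand: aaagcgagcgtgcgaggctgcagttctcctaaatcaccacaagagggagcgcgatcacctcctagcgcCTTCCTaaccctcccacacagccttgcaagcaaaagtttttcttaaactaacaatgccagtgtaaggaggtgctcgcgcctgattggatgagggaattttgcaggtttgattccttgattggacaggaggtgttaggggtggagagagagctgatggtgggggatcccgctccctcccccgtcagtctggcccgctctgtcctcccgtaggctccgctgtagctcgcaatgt
Plxnc1, chr10:94944796-94945095, minus strand: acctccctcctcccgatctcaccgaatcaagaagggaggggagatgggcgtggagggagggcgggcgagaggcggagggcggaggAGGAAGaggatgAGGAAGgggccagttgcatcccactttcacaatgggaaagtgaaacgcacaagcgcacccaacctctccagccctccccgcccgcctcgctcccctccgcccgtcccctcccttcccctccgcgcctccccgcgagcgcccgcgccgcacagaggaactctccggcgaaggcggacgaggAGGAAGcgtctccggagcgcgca

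The first 3 of these promoters hold 1 match each and that of Plxnc1 holds 3. Of 64 members, 55 were found in the table. AGGAAG was present on either strand in 37.5% of 32 starts of the genes higher in endothelial cells, in 53.3% of 15 starts of the genes higher in macrophages and in 36.6% of the 71 starts of members, against 35.4% of all 32851 starts. GGAAGT, searched on both strands as well and partly overlapping AGGAAG, was present in 18.8%, 26.7%, 18.3% and 23.8%. A match describes the letters of the window, and binding was not measured.

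Set against whole Dox islets, each fraction shows which members it held above the mixed tissue it came from. Whole islets contain both sorted cell types. Of 54 members tested in endothelial cells against Dox islets, 38 passed (33.1% of all genes did), 17 of them higher (11.5% of all genes) and 21 lower (21.6%). In 41 members the groups did not overlap (48.3% of all genes). Of the 21 lower, 5 (Epha3, Epha5, Ephb2, Sema3e and Sema4f) reached the filter through islets only; without them 17 were higher and 16 lower. After quantile normalization the split was 23 higher to 17 lower, with the median of all genes at 0.29 in place of 0.00. Without Dox replicate 3 the count was 24 of 49 members tested.

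The largest differences on the endothelial side of this comparison were of semaphorins, Eph receptors and Robo3, but these families went both ways. Of 19 semaphorins tested 6 were higher and 8 lower, of 9 Eph receptors 4 and 4, and of 6 Slits and Robos 2 and 4 (11.5% and 21.6% of all genes). Among genes that reached the filter in both groups, 6 of 17 semaphorins were higher and 6 lower, and 4 and 1 of 6 Eph receptors. Sema6b averaged 1195 ± 55.6 in endothelial cells and 252 ± 143 in Dox islets (log2 difference 2.38, SE 0.36, adjusted p = 0.00115). Sema4c stood at 2.31 (SE 0.51, adjusted p = 0.00860), Robo3 at 2.24 (SE 0.65, adjusted p = 0.0285), Epha1 at 1.87 (SE 0.33, adjusted p = 0.00269) and Sema3f at 1.87 (SE 0.52, adjusted p = 0.0247). Ephb1 at 1.78 (SE 0.19, adjusted p = 0.000200), Epha4 at 1.76 (SE 0.19, adjusted p = 0.000178) and Plxnd1 at 1.75 (SE 0.41, adjusted p = 0.0114) followed. The calls of Sema4c, Robo3, Sema3f and Plxnd1 were lost without Dox replicate 3, those of Robo3, Sema3f and Plxnd1 also without Dox replicate 2, that of Sema3f without endothelial replicate 1 or 2 and that of Robo3 without any 1 endothelial library. Over the alternatives the adjusted p ran up to 0.0703 for Sema4c, 0.142 for Robo3, 0.142 for Sema3f and 0.0903 for Plxnd1. Plxna4, Sema6a, Efna1, Robo4, Plxna2, Ephb4, Sema7a, Sema6d and Efnb2 were also higher, by log2 differences from 1.69 down to 0.80, and the calls of Sema7a, Sema6d and Efnb2 among them were lost without Dox replicate 3 and without some endothelial libraries.

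Sema3e and Epha5 were listed at the floor in all 3 endothelial libraries and are given no fold. Sema4f (log2 difference -5.92, SE 0.55), Epha3 (-5.86, SE 0.38) and Ephb2 (-4.81, SE 0.57) reached the filter through Dox islets only. They had to be lower in endothelial cells, so no p-value is given for them. Since Sema4f and Ephb2 were near the floor in endothelial cells, their size depends on the added 1. Among members that reached the filter in both groups, Slit2 (-5.59, SE 0.70, adjusted p = 0.000416) differed most. Epha7 (-5.09, SE 0.48, adjusted p = 9.00e-05) and Robo2 (-5.08, SE 0.25, adjusted p = 6.34e-06) followed. Robo2 had 86.1, 129.7 and 108 in endothelial libraries, against 3600, 3013 and 4452 in Dox islets, so the lowest islet library lay far above every endothelial one. Unc5c, Efna5, Robo1, Plxnb1 and Sema5b were lower in endothelial cells as well, and so was Slit3, at 2604 ± 121, against 4308 ± 618 in Dox islets, a call lost without Dox replicate 3 or endothelial replicate 1 or 2.

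Macrophages against Dox islets gave 47 members past the threshold of 53 tested (52.7% of all genes), 9 higher (21.3% of all genes) and 38 lower (31.4%), and in 49 the groups did not overlap (60.9% of all genes); this comparison shares its islet libraries with the last. The 8 that reached the filter in 1 group only had to differ (Slit1 through macrophages, Efna1, Epha5, Ephb2, Robo3, Sema3d, Sema3e and Sema3g through islets). No p-value is given for these 8. Without them 8 were higher and 31 lower. Of the 9 higher ones, Sema4d (log2 difference 4.0, SE 0.21, adjusted p = 1.33e-06), Sema4a (3.61, SE 0.28, adjusted p = 9.72e-06), Slit1 (3.60, SE 0.70), Plxnc1 (3.54, SE 0.25, adjusted p = 5.82e-06) and Epha1 (3.04, SE 0.34, adjusted p = 6.82e-05) differed most. Plxnb3 (2.51, SE 0.59, adjusted p = 0.00583), Sema4b (1.75, SE 0.48, adjusted p = 0.0125), Plxna1 (1.35, SE 0.31, adjusted p = 0.00499) and Plxnb2 followed. The call of Plxnb2 was lost without Dox replicate 2 or 3 or macrophage replicate 1. Among the lower ones Sema3g (-7.91, SE 0.79), Robo4 (-6.10, SE 0.27, adjusted p = 7.78e-07), Efna1 (-5.74, SE 0.52) and Sema5a (-5.59, SE 0.61, adjusted p = 6.63e-05) differed most on this scale. With a pseudocount of 16 Robo4 (-5.93) came before Sema3g (-5.50) and Efna1 stood at -4.31. Sema6a, Robo1, Slit2 and Efnb2 followed with log2 differences from -5.48 to -5.39.

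The comparison of Dox with No Dox islets addresses what 1 week of Dox changed in the whole tissue. Of 55 members tested, 7 passed (12.7%, against 5.74% of all genes): 6 rose (10.9%, against 4.33%) and 1 fell (1.82%, against 1.41%). The groups did not overlap in 13 members that were higher with Dox (23.6%, against 15.7% of all genes) and 3 that were lower (5.45%, against 9.64%). By family, 2 of 19 semaphorins, 1 of 9 plexins, 1 of 6 ephrins and 2 of 6 Slits and Robos rose, 1 Robo fell, and 0 of 10 Eph receptors and 0 of 5 netrins and Unc5 receptors passed limma's test (3 and 1 at an unadjusted p under 0.05). Over the 55 members 19 had an unadjusted p under 0.05, and the median log2 change was 0.44, against 0.11 over all genes. In whole islets, a change in the number of cells of a type and a change in RNA per cell cannot be told apart.

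Sema6d had 18244, 28546 and 20988 in Dox islets, against 6908, 5527 and 6529 in No Dox islets. The lowest Dox library lay above the highest without Dox, and the log2 change was 1.82 (SE 0.31, adjusted p = 0.0151). Sema6d is ENSMUSG00000027200 on chromosome 2 from 123915705 to 124493506 of mm9. Sema5b, a membrane semaphorin like Sema5a, had 422, 517 and 513 in Dox islets, against 93.0, 84.7 and 138 in No Dox islets (log2 change 2.21, SE 0.41, adjusted p = 0.0177). Its Dox islet libraries lay above all libraries of all other groups, the sorted fractions included.

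Plxnd1, the receptor of Sema3e, had 12760, 4765 and 3749 in Dox islets, against 1165, 2188 and 852 in No Dox islets, a log2 change of 2.24 (SE 0.50, adjusted p = 0.0335). Dox replicate 1 was far above the other libraries here, and it is 1 of the libraries whose values followed GC content; without it the log2 change was 1.71 (adjusted p = 0.0438). The gene is ENSMUSG00000030123 on chromosome 6 from 115904829 to 115945023 of mm9. Efnb2 had 7952, 12805 and 10883 in Dox islets, against 3975, 3008 and 3437 in No Dox islets. The groups were well apart, and Efnb2 rose by 1.58 on the log2 scale (SE 0.30, adjusted p = 0.0212).

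Robo4 had 10307, 7334 and 7930 in Dox islets, against 4115, 3287 and 2253 in No Dox islets (log2 change 1.43, SE 0.32, adjusted p = 0.0342). Slit3 had 4753, 3603 and 4567 in Dox islets, against 2131, 1820 and 1437 in No Dox islets (1.27, SE 0.29, adjusted p = 0.0364). As with Sema5b, each Dox islet library of Slit3 lay above all libraries of the other groups, endothelial cells (2604 ± 121) included.

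The 1 member that fell was Robo2, a Slit receptor with lower values in both sorted fractions. It had 3600, 3013 and 4452 in Dox islets, against 21179, 9839 and 8204 in No Dox islets. All No Dox libraries lay above all Dox libraries, with No Dox replicate 1 far above the rest, and the log2 change was -1.71 (SE 0.39, adjusted p = 0.0360). Without that library it was -1.30 (adjusted p = 0.0692). Robo2 is ENSMUSG00000052516 on chromosome 16 from 73892551 to 74412070 of mm9. Efna5 came next without passing (adjusted p = 0.0514), at 480, 568 and 774 in Dox islets, against 3030, 1570 and 1146 in No Dox islets. A second entry of the same name covers 59.9% of its exon bases, so its reads may have been split.

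**Figure D3:**
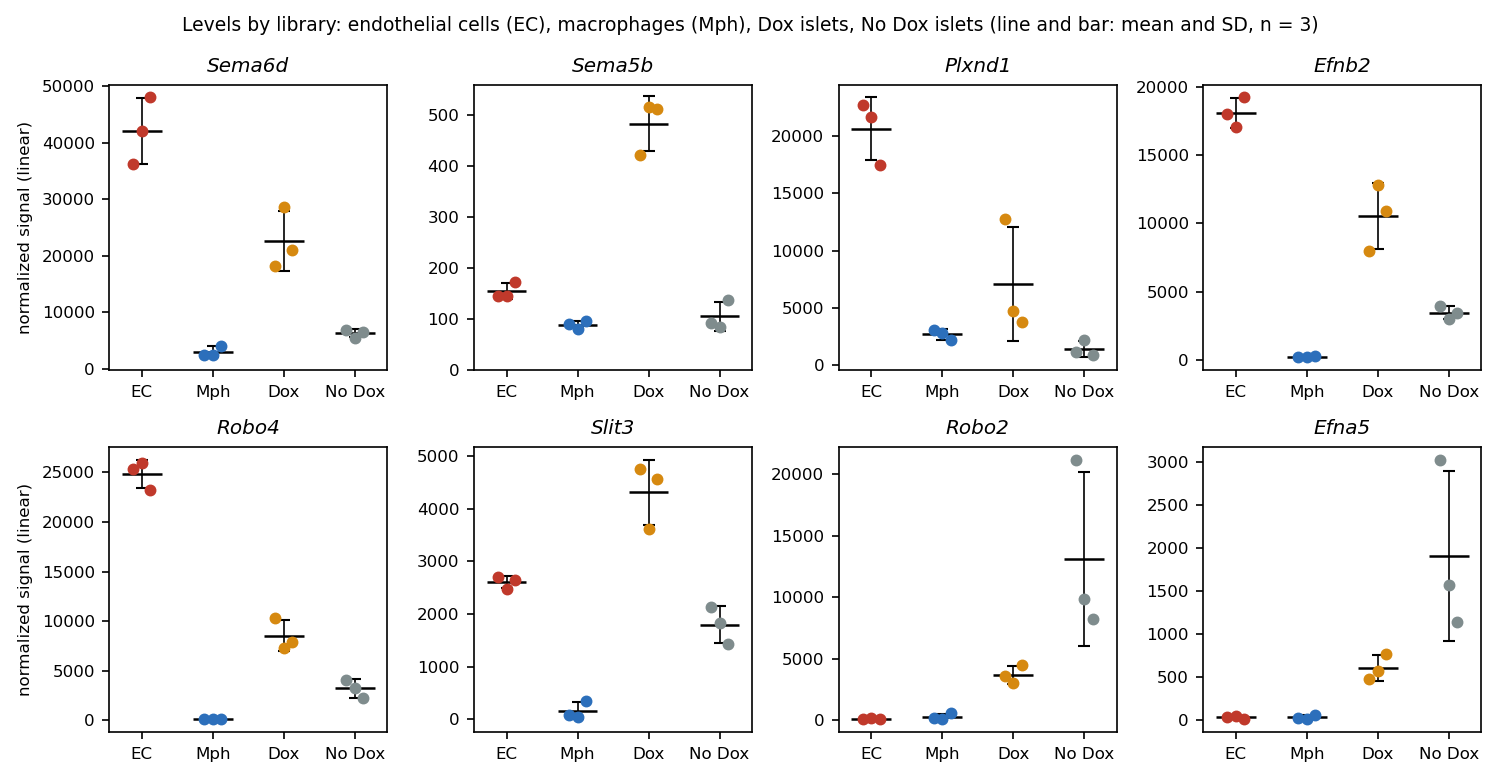
Panels give the normalized signal of 8 genes per library (points), with mean and SD of 3 libraries as line and bar, for endothelial cells (EC), macrophages (Mph), Dox islets and No Dox islets. Sema6d, Plxnd1, Efnb2 and Robo4 were highest in endothelial cells, Sema5b and Slit3 in Dox islets, and Robo2 and Efna5 in No Dox islets.

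These islet calls were few and moved with the libraries and genes entered, as did those of all genes. Without Dox replicate 2, and likewise without Dox replicate 3, 0 of the 7 passed limma's test, with 16 and 18 members at an unadjusted p under 0.05, and with no filter 0 passed (13 at an unadjusted p under 0.05). Over all genes the 829 calls fell to 5, 88 and 97 in these settings. The log2 changes stayed of like size without Dox replicate 2 or 3, at 1.64 and 1.86 for Sema6d, 2.16 and 2.17 for Sema5b, 2.42 and 2.59 for Plxnd1, 1.43 and 1.55 for Efnb2, 1.53 and 1.48 for Robo4, 1.39 and 1.22 for Slit3 and -1.58 and -1.86 for Robo2. Leaving out Dox replicate 1 also ended the calls of Robo2, Robo4 and Slit3, No Dox replicate 1 those of Plxnd1, Robo2 and Slit3, and No Dox replicate 3 those of Plxnd1, Robo4 and Slit3. Without Dox replicate 1 the count was 4, without both libraries that followed GC content it was 3 (Sema6d, Efnb2 and Plxnd1), and the direction of all 7 was kept in each of the 14 alternatives. After quantile normalization 4 rose and 2 fell and after median ratio rescaling 6 rose and 2 fell, with the median of all genes at -0.04 and -0.01 in place of 0.11. Members differed in how they followed the GC libraries. Of the 27 tested members with GC content above the median of 55.8%, Dox replicate 1 was the highest Dox library in 21 and No Dox replicate 2 the highest No Dox library in 19, against 8 and 7 of the 28 others.

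Several members had large islet differences with wide spread and did not pass. Unc5b averaged 1926 ± 1237 in Dox islets and 545 ± 346 in No Dox islets, Sema3f 1542 ± 1407 and 450.3 ± 409, and Epha2 541 ± 399 and 216 ± 159, each with Dox replicate 1 as the highest library. Ephb1 averaged 687 ± 53.0 and 249.7 ± 183, Efna1 477 ± 209.7 and 151 ± 72.2, Epha3 592 ± 97.0 and 218 ± 79.3, and Sema3d 81.7 ± 19.2 and 28.1 ± 11, and in these 4 and in Unc5b the groups did not overlap. Ephb4 averaged 1406 ± 673 and 610.2 ± 400, Sema6a 4206 ± 337 and 2271 ± 1297, Sema7a 1277 ± 679 and 579 ± 204, and Sema5a 13444 ± 5290 and 6544 ± 4051, without overlap in Sema6a and Sema7a. On the lower side, Robo1 averaged 1402 ± 323 in Dox islets and 2689 ± 1065 in No Dox islets without overlap, Unc5c 900.4 ± 381 and 2091 ± 1405, and Epha7 552 ± 265 and 1136 ± 584. Plxna2 (7892 ± 923, 5518 ± 1975), Plxna4 (2079 ± 126, 1374 ± 665), Epha4 (1464 ± 287, 895 ± 310), Plxna1 (873 ± 354, 451 ± 234), Plxnc1 (753 ± 221, 438 ± 132) and Sema3g overlapped between the groups.

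Marker genes moved with these values. The endothelial markers rose to the shares given above in Dox islets, with 5 of 8 past the threshold, and 4 of 8 macrophage markers rose. Pericyte and smooth muscle markers held 0.993 to 1.64% of the signal in Dox islets, against 0.262 to 0.557% in No Dox islets (4 of 6 rose), and fibroblast markers 0.243 to 0.448%, against 0.0905 to 0.176% (2 of 6 rose). Beta cell markers held 0.820 to 0.883%, against 1.78 to 2.95% (4 of 8 fell), and markers of alpha, delta and PP cells 0.628 to 0.772%, against 1.08 to 1.95% (0 of 5 passed, 2 at an unadjusted p under 0.05). Acinar markers held 0.374 to 1.2%, against 0.152 to 0.589% (0 of 8 passed, 5 at an unadjusted p under 0.05). Of 5 cell cycle genes 4 rose. The part of these shifts in the changes of the members was not tested.

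The fractions and the islets were measured in separate libraries in these 2 comparisons, which allows them to be set side by side. Of the 31 members higher in endothelial cells than in macrophages and tested in islets, 6 rose with Dox (19.4%, against 8.94% of 4251 genes on the same terms), and 26 of 31 had a log2 change above 0 (83.9%, against 69.0%). Of the 9 such members higher in macrophages, 0 rose (0 also at an unadjusted p under 0.05 by limma). Of 3475 genes on the same terms 3.34% rose, a share too small to show in 9 genes. Of the 9 members 4 lay above 0 (44.4%, against 56.2%). The members that rose were Sema6d, Sema5b, Plxnd1, Efnb2, Robo4 and Slit3. These shares were not tested.

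**Figure D4:**
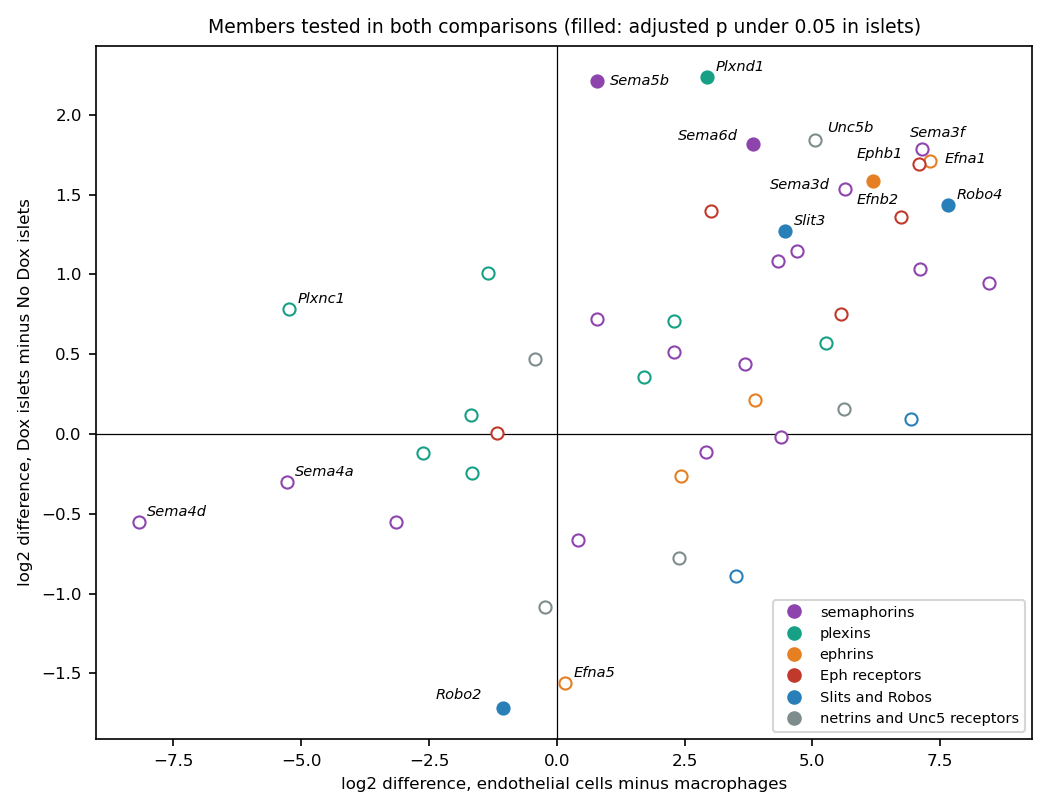
Each of the 46 points is a gene tested in both comparisons; the horizontal axis is the log2 difference between endothelial cells and macrophages and the vertical axis that between Dox and No Dox islets, with filled points past an adjusted p of 0.05 in islets. The 6 filled points above 0 lie on the endothelial side, and Robo2 is the filled point below 0.

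Ligands and their known receptors can be read off across the groups. Efnb2 and its receptor Ephb4 both had their highest mean in endothelial cells, as did Efna1 and Epha2. Sema6a and its receptors Plxna2 and Plxna4 did so too, and so did Sema3f and Sema3g with Nrp1 and Nrp2 against macrophages. Other pairs were split between groups. Sema7a was highest in endothelial cells and its receptor Plxnc1 in macrophages, Sema4d in macrophages and Plxnb1 in Dox islets, Sema6d in endothelial cells and Plxna1 in macrophages. Sema3e was listed at the floor in endothelial cells, where its receptor Plxnd1 was highest, and Slit2, Robo1 and Robo2 were highest in islets while Robo4 was highest in endothelial cells. Binding and protein were not measured.

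Other genes of these pathways were read from a pair of lists. Of 19 tested genes of other guidance receptors and ligands 3 rose in Dox islets and 0 fell by limma (1 at an unadjusted p under 0.05). Of all genes tested 4.33% rose and 1.41% fell. Nrp2 averaged 8223 ± 897 in Dox islets and 2606 ± 439 in No Dox islets (log2 change 1.67, SE 0.28, adjusted p = 0.0144), and Nrp1, at 36403 ± 6874 and 16352 ± 3408, did not pass (adjusted p = 0.0850). Flrt2, a ligand of Unc5 receptors, averaged 1915 ± 398 and 411 ± 143 (2.27, SE 0.37, adjusted p = 0.0129), and Plxdc2, a membrane protein with a plexin domain, 4961 ± 811 and 1612 ± 622 (1.69, SE 0.35, adjusted p = 0.0273). The list's median log2 change was 0.29, against 0.11 over all genes. Against Dox islets Nrp1 and Nrp2 were higher in endothelial cells (log2 differences 0.78 and 1.09) and lower in macrophages (-2.37 and -1.29). Of 18 genes of the list tested there, 3 were higher and 12 lower in endothelial cells (11.5% and 21.6% of all genes). In macrophages 3 of 18 were higher and 9 lower (21.3% and 31.4% of all genes).

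Of 37 tested intracellular effectors 3 rose in Dox islets and 1 fell (4.33% and 1.41% of all genes tested), with a median of 0.54. Fyn, a kinase downstream of Eph and plexin receptors, averaged 3749 ± 418 in Dox islets and 1121 ± 147 in No Dox islets (log2 change 1.74, SE 0.28, adjusted p = 0.0124). Rras, a small GTPase on which plexins act, averaged 945 ± 309 and 264 ± 185 (2.00, SE 0.49, adjusted p = 0.0457). Dpysl3, a collapsin response mediator, averaged 2016 ± 80.5 and 881 ± 264 (1.23, SE 0.31, adjusted p = 0.0485). Pak3, a kinase activated by Rac and Cdc42, averaged 1988 ± 463 and 5665 ± 1507 (-1.50, SE 0.32, adjusted p = 0.0303). Between the fractions 16 of 36 effectors were higher in endothelial cells and 10 lower, against 31.5% and 27.7% of all genes tested.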

How the data were processed

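Total RNA of islets and sorted cells was amplified (NuGEN Ovation), fragmented and sequenced on an Illumina HiSeq2500, per the labels' protocols. The authors deposited normalized signal; its method, the counting program and any use of strand are not stated. The submitters' processing notes name TopHat2 2.0 and mm9. The table held 22793 genes; 25 symbols stored as dates were restored through their IDs and 76 symbols with several entries kept the entry of highest mean, which left 22711. Coordinates of the 64 members equalled those of GENCODE M1.

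Each comparison was fitted on its own 6 libraries with limma 3.58.1 in R 4.3.3 on log2(signal + 1) with a variance trend. Genes with a signal of at least 15.5 in at least 3 of the 6 libraries were tested, p-values were adjusted by Benjamini-Hochberg over all of them, and the threshold was 0.05. The added 1 understates changes near the floor. Same-numbered endothelial and macrophage libraries deviated together (correlations over genes 0.23, 0.41 and 0.36), a pairing read from the data and not from the labels; a replicate block left the 42 member calls at 42.

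Every member is named once with the group of its highest mean or as near the floor; log2 changes are printed for at most 8 members per direction past the threshold with groups that do not overlap, and in places for others after their values were seen. Members and lists were chosen with earlier results of these data known. Alternatives were a pseudocount of 16, no filter, quantile normalization, median ratio rescaling, the 4 groups fitted together, the replicate block, each library left out, the 2 islet libraries that follow GC content left out, and, chosen after seeing the data, removal of each library's GC trend.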

Additional observations from a re-analysis of the deposited data

How the results depend on the processing

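The 7 members called in islets were 0 with no filter, 3 without both libraries that follow GC content and 13 after removing the GC trend, where all genes gave 97 of 22711, 301 of 13800 and 1679 of 14423 calls in place of 829 of 14443. They were 0 to 9 when 1 library was left out (5 to 801 over all genes); fewer libraries leave fewer degrees of freedom. In endothelial cells against Dox islets the 38 calls were 24 to 38 when 1 library was left out, 24 without Dox replicate 3. That run tested 49 members in place of 54, and all genes gave 2301 of 13169 calls in place of 4706 of 14218. Over the alternatives with all libraries, 40 to 42 members were called between the fractions, 27 to 43 in endothelial cells against Dox islets and 40 to 48 in macrophages against Dox islets; the low counts of the last 2 came with no filter. No called member changed sign under an alternative. Between the fractions 37 of 42 calls held under every alternative run in which the gene was tested. In endothelial cells against Dox islets 24 of 38 held, in macrophages against Dox islets 38 of 47, and in islets 0 of 7. Among the held calls, 6, 5 and 8 of the first 3 comparisons were of genes that reached the filter in 1 group only. These genes were not tested in the runs without a library of that group. Sema6d and Efnb2 passed in 11 of 14 islet alternatives, Sema5b in 10, Plxnd1 and Robo2 in 8, Robo4 in 6 and Slit3 in 5.

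With the replicate number as a block, 6 members were called in islets, 43 in endothelial cells against Dox islets and 48 in macrophages against Dox islets; these libraries share only a number. Same-numbered islet libraries did not deviate together (correlations -0.25, -0.54 and 0.16), Dox replicate 1 being closest to No Dox replicate 2 (0.78). Depth is unknown, so what low signals could miss cannot be stated.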
